A study of Mus musculus with 6 samples.

Results

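The genes described here are 34 members of the apoptosis machinery, chosen by symbol from a list of Bcl2 family genes, caspases, death receptors, inhibitors of apoptosis and the factors that act with them. All 34 were among the 24980 symbols of the deposited table. They were measured in hindlimb satellite cells, the stem cells of skeletal muscle, sorted by flow cytometry from adult C57BL6/J mice. The 3 libraries labelled WT and the 3 labelled KO differ in genotype at estrogen receptor α, encoded by Esr1, which was targeted in satellite cells. Cre was induced with tamoxifen (10 mg in all, per the labels) in both groups, so the controls share the drug. The Cre driver is not named in the labels used here, and although each library's title carries a number of its own, the labels do not say whether that number stands for a mouse. A p-value therefore reflects only how far libraries of a group differ, which may be technical. Values are TPM, an estimate of transcript abundance scaled for transcript length, so levels of different genes in a library can be set side by side. Libraries are numbered here in their listed order within each group. No label pairs a WT library with the KO library of the same number.

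Apoptosis runs along 2 routes that meet at the caspases, the proteases that take the cell apart. In the mitochondrial route, BH3-only proteins sense stress and act on the effectors Bax and Bak1, which open the outer mitochondrial membrane unless Bcl2, Bcl2l1 or Mcl1 hold them back. Released cytochrome c then builds the apoptosome on Apaf1. In the receptor route, ligand-bound Fas or tumour necrosis factor family receptors recruit Fadd and Casp8, a step that Cflar limits, and the inhibitor of apoptosis proteins restrain caspases and their signalling. Satellite cells are long-lived and mostly quiescent in resting muscle, and estrogen receptor signalling has been linked to survival of muscle cells.

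Esr1 separated the groups without overlap, at 7.53, 6.96 and 6.94 TPM in WT and 2.92, 3.69 and 3.87 TPM in KO, so the labels hold for all 6 (exact two-sided permutation p = 0.1, the smallest that 3 against 3 can give; limma adjusted p = 0.0925). The 10 satellite cell markers all passed the filter on low values. Pax7 lay between 17.9 and 32.8 TPM and Myod1 between 64.25 and 100.5 TPM. The summed level of the 10 was 482 to 640 TPM in WT and 491 to 614 TPM in KO. Whether the sorted cells were still quiescent was not tested. Markers of other cells were present at lower sums. The 8 genes of fibro-adipogenic progenitors summed to between 111 and 215 TPM, most of it Col3a1 and Gsn. Dcn lay between 7.32 and 13.44 TPM, Col1a1 between 0.8 and 9.7 TPM and Col1a2 between 0.7 and 5.52 TPM. Ly6a reached 2.24 TPM, Lum 1.01 TPM and the receptor gene Pdgfra 0.31 TPM. The 8 Schwann cell genes summed to between 7.30 and 9.63 TPM in WT and to 8.84, 16.3 and 22.7 TPM in KO, and the 6 pericyte and smooth muscle genes to between 24.2 and 43.3 TPM over all libraries. The 6 mature fibre genes summed to 9.99, 12.96 and 24.9 TPM in WT libraries 1, 2 and 3, and to 6.97, 37.5 and 33.6 TPM in KO libraries 1, 2 and 3. The 8 endothelial genes summed to 12.3, 18.8 and 14.2 TPM in WT and to 12.4, 25.1 and 18.98 TPM in KO. The 8 leukocyte genes summed to between 3.52 and 13.1 TPM, with Ptprc at 0.29 TPM or less in every library. No marker was listed at 0 in all 6 libraries. In such bulk samples fewer cells of a type and less RNA per cell cannot be told apart.

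Of the 34 genes, 19 had a TPM of at least 1 in 3 libraries or more and were tested among the 8971 genes that did so. The remaining 15 were too low. Differences are on the log2(TPM + 1) scale, which understates the change of genes with low values. None of the 19 was called different between KO and WT at a limma adjusted p under 0.05, where 0.0557% of all genes tested were called, 0.0334% higher and 0.0223% lower. At an unadjusted limma p under 0.05, 2 members were higher in KO (Diablo and Bcl2l1) and 0 lower, against 7.89% and 2.66% of all genes tested. The KO libraries lay above all WT libraries in those same 2 of 19 members and below in 0, against 13.5% and 3.07% of all genes tested, so the share without overlap was near the background. The log2 difference was above 0 in 18 of the 19, where 77.6% of all genes tested had a positive difference, and Bax was the exception. The median log2 difference of the 19 was 0.18, beside 0.12 for all genes tested. Under scaling by the median of ratios those medians were 0.06 and 0.01, with 12 members above 0 and 7 below, so the lean toward higher values depends on how the libraries are scaled.

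**Figure D1:**
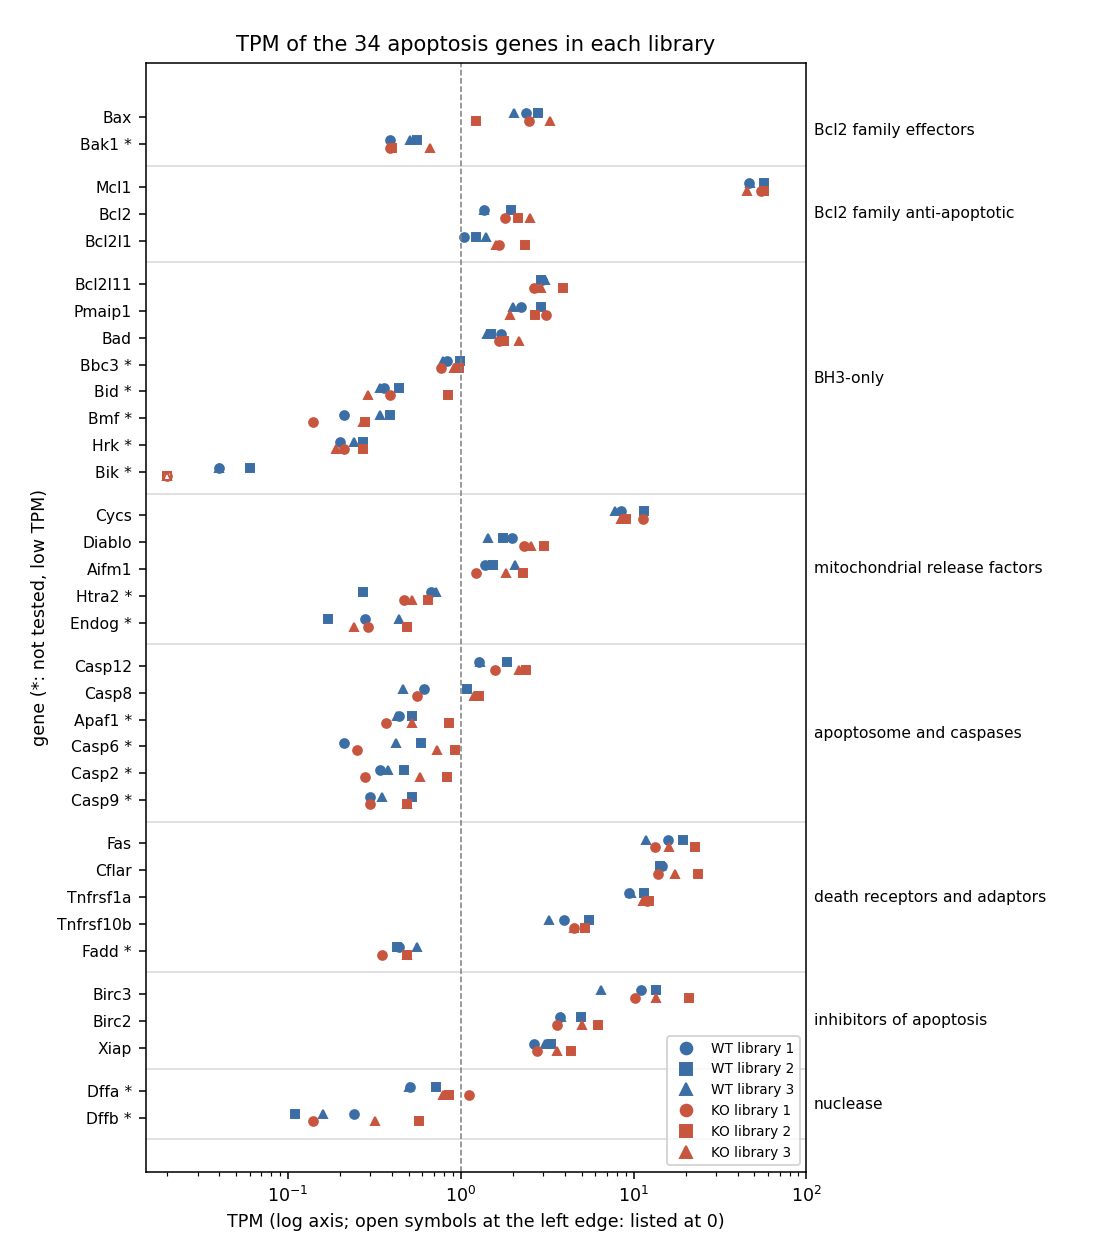
TPM on a log axis for each of the 34 genes by role, with 1 symbol per library (blue WT, red KO), a dashed line at 1 TPM, and an asterisk at the 15 genes that were not tested. Mcl1 lay far above the other Bcl2 family genes, Fas, Cflar, Birc3 and Tnfrsf1a lay near 10 TPM or above, and most caspases lay below 1 TPM.

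Among the anti-apoptotic Bcl2 family genes, transcripts of Mcl1, a short-lived protein that holds Bak1 and BH3-only proteins in check, far outnumbered the others. Mcl1 (chromosome 3, 95658788 to 95663176, GRCm38, plus strand) was at 46.4, 57.1 and 47.4 TPM in WT and at 54.9, 56.65 and 45.5 TPM in KO. The groups overlapped fully, with the highest value in WT library 2 and the lowest in KO library 3. The log2 difference was 0.06, with a 95% interval from -0.29 to 0.40. Mcl1 made up 95.04%, 94.7% and 94.5% of the summed TPM of Mcl1, Bcl2 and Bcl2l1 in WT and 94.1%, 92.6% and 91.7% in KO. The KO shares lay below all WT shares. This share was chosen after values were seen and has no test. Bcl2 and Bcl2l1, the rest of the sum, were higher on average in KO.

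The stretch before the Mcl1 start is shown because this gene supplies most of that sum, and those before the starts of Fas and Cflar because they are the most abundant death receptor and caspase regulator measured here. Each covers the 250 bases before the RefSeq start (GRCm38.p6), read 5′ to 3′ on the gene's plus strand, and lies in no annotated exon of GENCODE vM21. They are chr3:95658471-95658720 for Mcl1, chr19:34290409-34290658 for Fas and chr1:58711241-58711490 for Cflar. Capitals mark GGGCGG, the GC box, on the reverse strand for Mcl1, TGACTCA, the AP-1 site, on the reverse strand for Fas, and for Cflar the overlapping matches to TATAAA on both strands.
Mcl1: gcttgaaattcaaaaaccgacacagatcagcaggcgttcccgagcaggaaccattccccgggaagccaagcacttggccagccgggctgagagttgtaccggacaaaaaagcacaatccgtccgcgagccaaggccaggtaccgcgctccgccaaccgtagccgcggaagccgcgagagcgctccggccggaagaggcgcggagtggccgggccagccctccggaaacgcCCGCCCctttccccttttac
Fas: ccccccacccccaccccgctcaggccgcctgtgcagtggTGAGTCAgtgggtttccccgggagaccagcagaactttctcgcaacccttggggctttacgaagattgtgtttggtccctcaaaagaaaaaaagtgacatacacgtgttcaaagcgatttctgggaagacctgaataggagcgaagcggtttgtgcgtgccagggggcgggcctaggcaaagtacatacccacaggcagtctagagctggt
Cflar: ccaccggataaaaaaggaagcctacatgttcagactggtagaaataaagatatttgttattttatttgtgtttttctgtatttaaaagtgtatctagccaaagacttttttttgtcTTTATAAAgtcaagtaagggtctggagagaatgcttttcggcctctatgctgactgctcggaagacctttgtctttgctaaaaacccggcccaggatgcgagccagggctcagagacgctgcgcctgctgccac

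Promoters of 30 of the 34 genes were matched in the RefSeq table, 41 stretches in all, each from 250 bases before to 50 after a start, and searched on both strands. A gene with several starts counts once per start. These 41 include members that were not tested, whereas most shares set beside them are those of genes tested. The full estrogen response element, GGTCA and TGACC with 3 bases between them, was in 0 of the 41 and in 0.0116% of the promoters of genes tested. Either arm alone, GGTCA, was in 11 of the 41 (26.8%), against 37.3% of the promoters of genes tested and 40.5% of all promoters, and the 9 genes with one included Diablo and Bcl2l1. The core of a p53 site, CATG repeated after 6 bases, was in 0 of the 41, against 0.266% of the promoters of genes tested. GGGCGG was in 63.4% of the members' promoters and in 64.0% of those of genes tested, beside 35.7% of all promoters. TATAAA was in 2 of the 41, against 7.31% for genes tested, CACGTG, the E-box, in 3, against 10.5%, and TGACTCA in 1, that of Fas, against 3.76%. CCAAT was in 15, or 36.6%, against 36.7%. The full cyclic AMP response element was in 2, those of Cycs and Birc2, against 3.29%, and an E2F site in 2, those of Casp2 and Fadd, against 1.03%. Of 2 forms of the NF-κB site, 1 of them contained in the other, 0 of the 41 held either, against 0.416% and 0.231%. These 9 further motifs, from GGGCGG on, were searched after the data were seen, those marked in the stretches above were picked from among them, and a match in letters is not a binding site.

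Bcl2 and Bcl2l1, the other anti-apoptotic members, were both higher on average in KO at low levels. Bcl2l1, which encodes Bcl-xL (chromosome 2, 152780668 to 152831728, minus strand), was at 1.05, 1.22 and 1.40 TPM in WT and at 1.67, 2.36 and 1.6 TPM in KO. All 3 KO values lay above all WT values, with KO library 2 the highest. The means were 1.22 ± 0.175 and 1.88 ± 0.420 TPM (SD, n = 3 each), a ratio of 1.53, and the log2 difference of 0.36 (SE 0.14) did not pass (limma adjusted p = 0.406). It was 0.62 with protein-coding genes alone, rescaled, at a limma adjusted p of 0.151.

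Bcl2, the founding member of the family (chromosome 1, 106538178 to 106714274, minus strand), was at 1.37, 1.95 and 1.36 TPM in WT and at 1.80, 2.15 and 2.53 TPM in KO. The groups overlapped through WT library 2, which exceeded KO library 1. The means were 1.56 ± 0.338 and 2.16 ± 0.365 TPM (SD, n = 3 each; limma adjusted p = 0.506). The microRNA gene Mir3473f, listed at a mean of 117 TPM, lies inside Bcl2 on the same strand, and how reads there were shared out is not known here.

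The effectors were scarce beside Mcl1. Bax, which forms pores in the outer mitochondrial membrane (chromosome 7, 45461697 to 45466898, minus strand), was at 2.40, 2.80 and 2.02 TPM in WT and at 2.48, 1.23 and 3.29 TPM in KO. The KO libraries held both the lowest value, in library 2, and the highest, in library 3. The log2 difference was -0.08, with a 95% interval from -0.60 to 0.45, and without KO library 2 it was 0.19. The annotated gene Gm45808, not among the listed symbols, overlaps Bax on the same strand over 915 bp. Bak1, the second effector, lay between 0.39 and 0.66 TPM and was not tested, with means of 0.487 ± 0.0874 in WT and 0.483 ± 0.153 TPM in KO (SD, n = 3 each). Ggnbp1, at a mean of 0.348 TPM, overlaps Bak1 over 9200 bp on the opposite strand.

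Of the 8 BH3-only genes, 3 were tested. Bcl2l11, which encodes Bim, a broad activator of the effectors (chromosome 2, 128126038 to 128162547, plus strand), was at 2.96, 2.92 and 3.06 TPM in WT and at 2.67, 3.91 and 2.92 TPM in KO. The WT libraries were almost level while KO held both the highest and the lowest value. Its log2 difference of 0.05 had a 95% interval from -0.26 to 0.37. Pmaip1, which encodes Noxa, a p53 target that binds Mcl1, was at 2.22, 2.93 and 2.01 TPM in WT and at 3.10, 2.69 and 1.93 TPM in KO, with full overlap.

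Bad, a BH3-only protein controlled by survival kinases, was at 1.72, 1.49 and 1.42 TPM in WT and at 1.66, 1.77 and 2.17 TPM in KO. KO libraries 2 and 3 exceeded all WT libraries and KO library 1 did not (log2 difference 0.17, SE 0.13, limma adjusted p = 0.644). The other 5 were below the filter in every library. Bbc3, which encodes Puma, lay between 0.77 and 0.99 TPM, Bid, the link from Casp8 to mitochondria, between 0.29 and 0.84 TPM, Bmf between 0.14 and 0.39 TPM and Hrk between 0.19 and 0.27 TPM. Bik was listed at 0 in all 3 KO libraries and at 0.04, 0.06 and 0.04 TPM in WT, levels at which a TPM value gives no depth to judge it by.

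Ratios of TPM within a library do not change when that library is rescaled, and 9 further ones were computed with no test. The Bax to Bcl2 ratio was 1.75, 1.44 and 1.49 in the WT libraries and 1.38, 0.572 and 1.30 in the KO libraries. The groups did not overlap here, with KO the lower, as in no other of these 9 ratios, and the step between the lowest WT and the highest KO value was small. The Bax to Bcl2l1 ratio was 2.29, 2.30 and 1.44 in the WT libraries and 1.49, 0.521 and 2.06 in the KO libraries, with overlap. Against Mcl1 Bax lay at 0.0478 ± 0.00471 in WT and 0.0464 ± 0.0253 in KO (SD, n = 3 each).

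The summed TPM of the effectors and the BH3-only genes was 0.232, 0.213 and 0.215 times that of the anti-apoptotic genes in the WT libraries, and 0.202, 0.202 and 0.254 times in the KO libraries. The means of this ratio were 0.220 ± 0.0105 and 0.220 ± 0.0301 (SD, n = 3 each), and the KO libraries lay on both sides of WT. Most of its denominator is Mcl1. Against the sum of Bcl2 and Bcl2l1 alone, a ratio added after values were seen and not tested, the effectors and BH3-only genes were at 4.68, 4.05 and 3.90 in WT and at 3.403, 2.74 and 3.06 in KO. KO was the lower group without overlap, with means of 4.21 ± 0.413 and 3.07 ± 0.3304 (SD, n = 3 each). Both genes of its denominator were already seen to be higher on average in KO, so this ratio restates their values in part. Diablo to Xiap, the released antagonist over its target, was at 0.754, 0.530 and 0.469 in WT and at 0.838, 0.704 and 0.709 in KO, where WT library 1 overlapped with KO. The ratios of Bak1 and Bcl2l11 to Mcl1, of Casp8 to Cflar and of Dffb to Dffa overlapped as well.

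**Figure D2:**
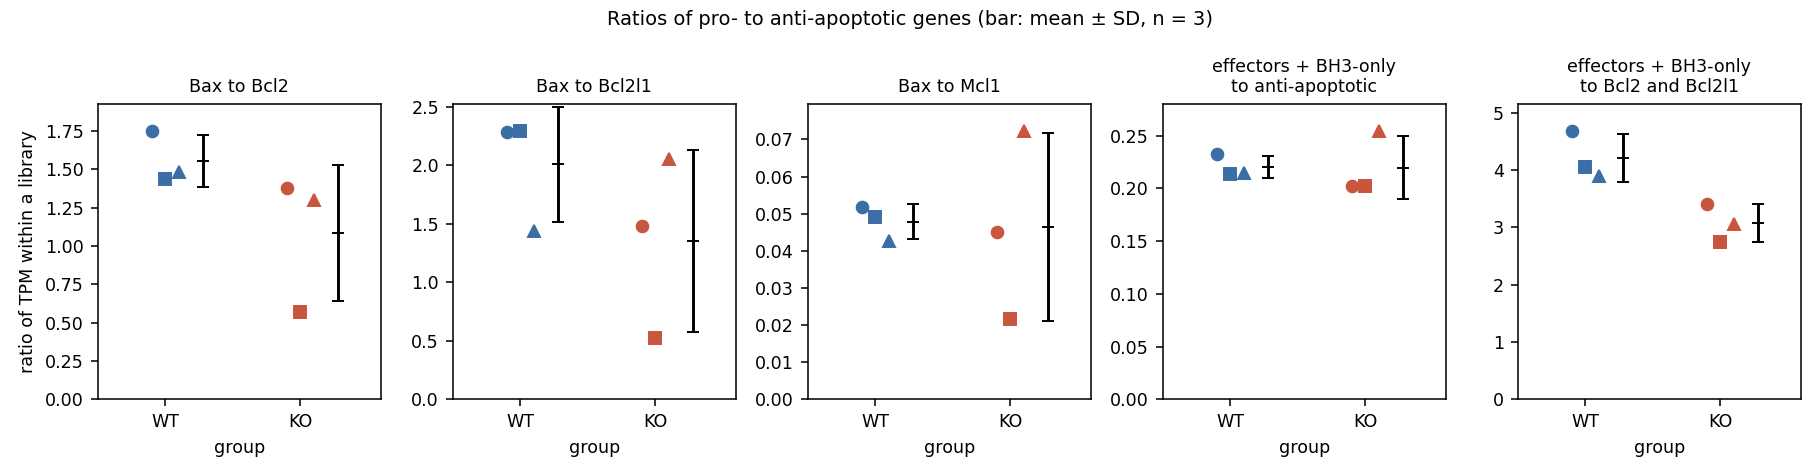
Ratios of TPM within each library for Bax to Bcl2, Bax to Bcl2l1, Bax to Mcl1, and the summed effectors and BH3-only genes to the anti-apoptotic genes and to Bcl2 and Bcl2l1 alone (circles, squares and triangles: libraries 1, 2 and 3; black bars: mean ± SD, n = 3). KO library 2 had the lowest Bax ratio in each of the 3 panels with Bax, and the summed ratio to all anti-apoptotic genes had means of 0.220 in both groups. The summed ratio to Bcl2 and Bcl2l1, added after values were seen and not tested, was lower in KO without overlap. Both genes of its denominator were already seen to be higher on average in KO.

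Of the 5 factors that leave the mitochondrion, 3 were tested. Diablo, which encodes Smac, an antagonist of the inhibitor of apoptosis proteins (chromosome 5, 123509765 to 123524176, minus strand), had the smallest p of all members. It was at 1.99, 1.76 and 1.44 TPM in WT and at 2.32, 3.04 and 2.56 TPM in KO. Every KO library exceeded every WT library. The means were 1.73 ± 0.276 and 2.64 ± 0.367 TPM (SD, n = 3 each), a ratio of 1.53, and the log2 difference of 0.42 (SE 0.14) did not pass (limma adjusted p = 0.312). It was between 0.34 and 0.48 with any 1 library left out and 0.31 under median-of-ratios scaling. The annotated gene Gm49027 overlaps Diablo on the same strand over 12095 bp and is not among the listed symbols, so its reads could count toward Diablo.

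Cycs, which encodes somatic cytochrome c, was at 8.45, 11.4 and 7.81 TPM in WT and at 11.3, 9.01 and 8.45 TPM in KO. The groups overlapped, with WT library 2 and KO library 1 the highest, and processed copies of this gene in the mouse genome make its value uncertain. Aifm1, a flavoprotein of the intermembrane space, was at 1.38, 1.54 and 2.06 TPM in WT and at 1.22, 2.29 and 1.83 TPM in KO, also with overlap. The serine protease Htra2 lay between 0.27 and 0.72 TPM and the nuclease Endog between 0.17 and 0.49 TPM, both below the filter. Htra2 shares 753 bp with Aup1 and Endog 617 bp with Spout1, each on the opposite strand, and no source used here gives the strandedness of the libraries.

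The apoptosome scaffold and most caspases were at low levels. Apaf1, the scaffold, lay between 0.37 and 0.86 TPM, and Casp9, the initiator it activates, between 0.30 and 0.52 TPM. Casp2, an initiator linked to DNA damage and ploidy, lay between 0.28 and 0.83 TPM and Casp6, an executioner, between 0.21 and 0.93 TPM. None of these 4 reached 1 TPM in any library, and Apaf1, Casp2 and Casp6 had their highest value in KO library 2.

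Casp8, the initiator of the receptor route (chromosome 1, 58795374 to 58847503, plus strand), passed the filter with exactly 3 libraries. It was at 0.61, 1.08 and 0.46 TPM in WT and at 0.56, 1.27 and 1.20 TPM in KO. WT library 2 and KO libraries 2 and 3 were high and the others low, whatever the group (limma adjusted p = 0.693). Casp12, a caspase of the inflammatory family associated with the endoplasmic reticulum, was at 1.27, 1.86 and 1.29 TPM in WT and at 1.57, 2.37 and 2.18 TPM in KO. WT library 2 overlapped with KO library 1, and the log2 difference was 0.30 (SE 0.16, limma adjusted p = 0.544).

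The receptors and Cflar were more abundant than the mitochondrial effectors. Over all libraries Fadd and Casp8 had means of 0.46 and 0.863 TPM, below that of Bax, 2.37 TPM. The mean of Bak1, 0.485 TPM, lay between those of Fadd and Casp8. Fas, the receptor for Fas ligand (chromosome 19, 34290666 to 34327772, plus strand), whose upstream stretch is printed above, was at 15.9, 19.2 and 11.9 TPM in WT and at 13.3, 22.8 and 16.1 TPM in KO. Library 2 of each group was the highest, and the 95% interval of the log2 difference of 0.14 ran from -0.39 to 0.66. Tnfrsf1a, the main receptor of tumour necrosis factor, was at 9.42, 11.5 and 9.70 TPM in WT and at 12.0, 12.2 and 11.3 TPM in KO. WT library 2 exceeded KO library 3, so the groups overlapped, and the log2 difference was 0.20 (SE 0.13, limma adjusted p = 0.619).

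Tnfrsf10b, the mouse receptor of the ligand TRAIL, was at 3.95, 5.55 and 3.24 TPM in WT and at 4.51, 5.22 and 4.51 TPM in KO, all within the WT range. Fadd, the adaptor that joins the receptors to Casp8, was low at between 0.35 and 0.56 TPM and was not tested. Cflar, a catalytically inactive relative of Casp8 that limits its activation (chromosome 1, 58711508 to 58758884, plus strand), was at 14.57, 14.17 and 14.45 TPM in WT and at 13.87, 23.7 and 17.3 TPM in KO. The WT libraries were level, with a mean of 14.4 ± 0.205 TPM, and the KO libraries spread on both sides of them, with a mean of 18.3 ± 4.99 TPM (SD, n = 3 each). The log2 difference was 0.29 (limma adjusted p = 0.610) and 0.10 without KO library 2. Cflar and Casp8 are neighbours on chromosome 1, 36489 bp apart on the same strand with no protein-coding gene between them, and their levels differed by more than 10-fold in every library.

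The inhibitors of apoptosis, ubiquitin ligases that bind caspases or receptor complexes, were all tested. Birc3, which encodes the NF-κB-inducible cIAP2 (chromosome 9, 7848699 to 7873186, minus strand), had the largest log2 difference of the 19 members, 0.48, and also the widest interval, from -0.20 to 1.16. It was at 11.0, 13.5 and 6.50 TPM in WT and at 10.2, 20.8 and 13.53 TPM in KO. The groups overlapped, with WT library 3 the lowest and KO library 2 the highest (limma adjusted p = 0.603). Its neighbour Birc2, which encodes cIAP1 and lies 11634 bp away on the same strand, was at 3.76, 4.96 and 3.81 TPM in WT and at 3.62, 6.19 and 5.06 TPM in KO. Xiap, the direct inhibitor of executioner caspases, on the X chromosome, was at 2.64, 3.32 and 3.07 TPM in WT and at 2.77, 4.32 and 3.61 TPM in KO. In both Birc2 and Xiap KO library 1 lay within or below the WT range and KO library 2 was the highest.

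Dffb, the nuclease that cuts DNA between nucleosomes, and Dffa, its inhibitor and chaperone, were both below the filter. Dffa was at 0.51, 0.72 and 0.50 TPM in WT and at 1.12, 0.85 and 0.79 TPM in KO, without overlap. Tested with no filter on low values, its log2 difference was 0.28 (limma adjusted p = 0.661). Dffb was at 0.24, 0.11 and 0.16 TPM in WT and at 0.14, 0.57 and 0.32 TPM in KO, with overlap.

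**Figure D3:**
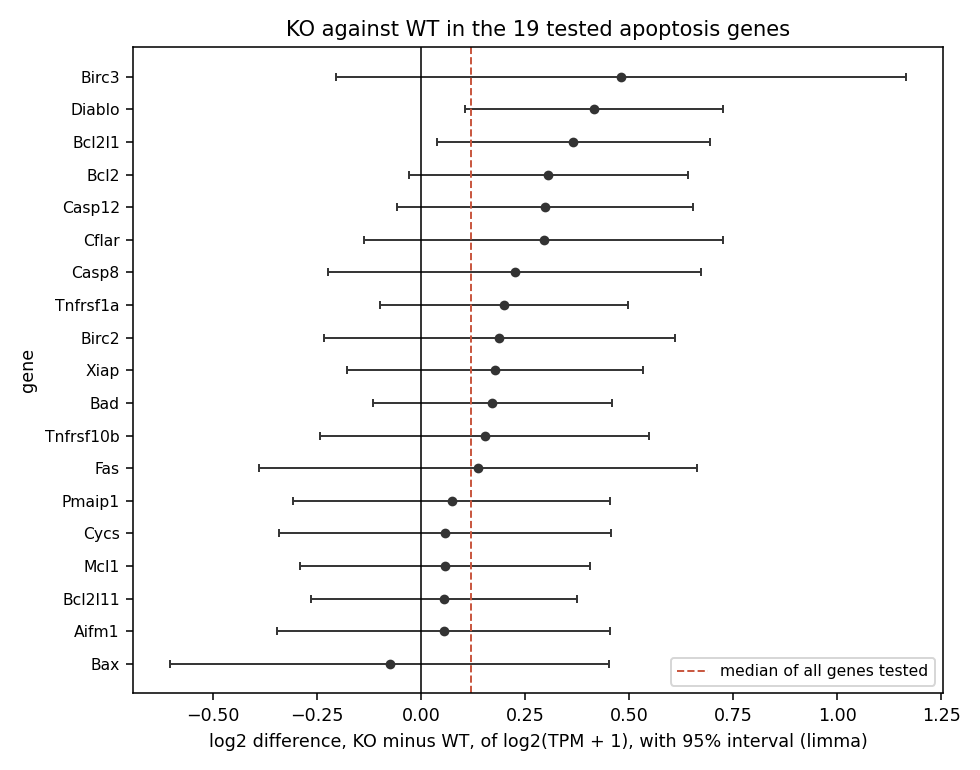
Log2 difference, KO minus WT, of the 19 tested genes with the 95% interval from limma (points and bars), a black line at 0 and a dashed red line at the median of all genes tested, 0.12. The intervals of Diablo and Bcl2l1 alone lay above 0, before any adjustment for the number of genes tested, and 18 of the 19 points lay above 0.

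KO library 2 stood out among the members. KO library 2 held the highest value in 12 of the 19 tested members (63.2%), where it was the highest in 36.7% of all genes tested. WT library 3 held the lowest value in 8 of the 19 (42.1%), near the 38.9% of all genes tested. KO library 1 was the lowest in 4 (21.1%) and the highest in 1 (5.26%), beside 15.4% and 13.9% of all genes tested. Bax alone was lowest in KO library 2. Without KO library 2 the median log2 difference of the members was 0.10, beside 0.08 for all genes tested, and 0 members had an unadjusted limma p under 0.05 in either direction, where 5.43% of all genes tested were higher and 2.73% lower. Without KO library 1 the median was 0.30, beside 0.15, and 5 of the 19 members were higher and 0 lower at an unadjusted limma p under 0.05, where 11.0% of all genes tested were higher and 2.56% lower, with 0 members passing after adjustment.

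The summed TPM of Fas, Fadd, Tnfrsf1a, Tnfrsf10b and Cflar was 44.2, 50.9 and 39.8 TPM for WT against 44.1, 64.4 and 49.7 TPM for KO. That of Xiap, Birc2 and Birc3 was 17.4, 21.8 and 13.4 TPM for WT against 16.6, 31.3 and 22.2 TPM for KO. In both sums library 2 was the highest of its group. KO library 2 also had the highest sum of mature fibre markers, 37.5 TPM, of endothelial markers, 25.1 TPM, and of pericyte and smooth muscle markers, 43.3 TPM. KO library 3 was at 33.6, 18.98 and 42.1 TPM in these sums. It had the highest Schwann cell sum, 22.7 TPM against 16.3 TPM in KO library 2. Of 10 stress and early response genes that cell isolation can induce, 7 were highest in library 2 within both groups, and Hspa1a, Hspa1b and Ier2 were not. The share of all genes tested with that pattern was not counted. WT library 2 was the highest of all 6 libraries in 22.5% of all genes tested and KO library 2 in 36.7%, so a general lean of these libraries is part of the count. An equal library number does not mark a shared batch or a pair, because libraries are numbered by order within a group. Fos, 1 of the 7, was at 191 TPM in WT library 2 and 174 TPM in KO library 2 and between 102 and 128 TPM in the other 4. The part of these other signals in the members' values was not tested.

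**Figure D4:**
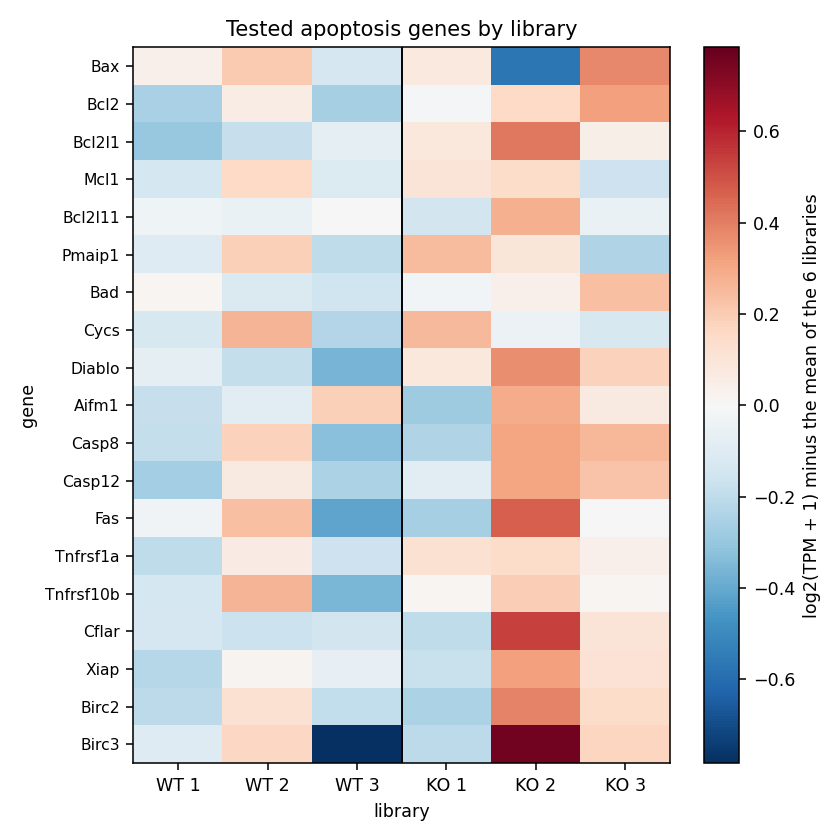
Log2(TPM + 1) of the 19 tested genes in each library, minus the gene's mean over the 6 libraries (red above, blue below), with a line between the WT and the KO libraries. KO library 2 was the highest in 12 of the 19 genes, and Bax was the gene lowest there.

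Beyond the 34, 49 other genes of cell death were read from the same fit, and 28 of them were tested. None was called by limma, while 27 had a difference above 0 and 1 below, with a median of 0.19, beside 77.6% above 0 and a median of 0.12 for all genes tested. At an unadjusted limma p under 0.05, 5 were higher and 0 lower, against 7.89% and 2.66% of all genes tested, and in 7 of the 28 all KO libraries lay above all WT libraries, against 13.5% of all genes tested.

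Of the 11 further Bcl2 family genes 6 were tested, with 5 differences above 0 and 1 below. In 4 of the 6, those named here, all KO libraries lay above all WT libraries, and in 0 below. The shares over all genes tested were 13.5% above and 3.07% below. Bok, a Bax-like effector, was at 1.28, 0.67 and 0.56 TPM in WT and at 2.10, 1.34 and 2.99 TPM in KO (log2 difference 0.76, SE 0.22, limma adjusted p = 0.253). Bcl2l2, the anti-apoptotic Bcl-w, was at 1.16 ± 0.125 in WT and 1.73 ± 0.371 TPM in KO (SD, n = 3 each). Bnip3l, a receptor for mitophagy, was at 3.98 ± 0.216 and 5.06 ± 0.461 TPM, and Bcl2l13, another mitophagy receptor, at 1.81 ± 0.0551 and 2.25 ± 0.0781 TPM (SD, n = 3 each). Bok and Bcl2l2, which oppose each other in function, both had higher values in KO.

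Among the other caspases 2 of 5 were tested. Casp4, an inflammatory caspase, was at 3.75 ± 1.72 in WT and 4.73 ± 1.71 TPM in KO (SD, n = 3 each). Of 13 further genes of death receptor signalling 5 were tested. Traf2, an adaptor that recruits Birc2 and Birc3, was at 1.57 ± 0.408 and 2.33 ± 0.182 TPM, and Tnfrsf21, a death domain receptor, at 1.497 ± 0.354 and 2.13 ± 0.333 TPM, both without overlap (SD, n = 3 each). Ripk1, the kinase at the branch between survival and death, was at 15.5 ± 3.38 and 18.9 ± 2.69 TPM, and the ligand gene Tnfsf10 at 1.07 ± 0.119 and 1.29 ± 0.432 TPM (SD, n = 3 each).

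Birc5, which encodes survivin, a mitotic regulator named for its inhibitor of apoptosis domain, had the smallest p of the 28. It was at 0.98, 1.1 and 0.91 TPM in WT and at 2.61, 1.61 and 4.37 TPM in KO (log2 difference 0.89, SE 0.24, limma adjusted p = 0.222). Its order across the KO libraries was that of the proliferation marker Mki67 and across the WT libraries the reverse. Mki67 was at 5.35, 1.59 and 15.3 TPM there and at 0.91, 0.41 and 2.47 TPM in WT. The part of cycling cells in the Birc5 values was not tested. Read with Birc5 were 4 other genes. Xaf1, an antagonist of Xiap and not itself an inhibitor of apoptosis, was at 1.64 ± 0.165 in WT and 1.96 ± 0.589 TPM in KO. Birc6, a very large ubiquitin ligase, was at 6.12 ± 0.534 and 6.42 ± 0.540 TPM (SD, n = 3 each), while Naip2 and Naip5 were not tested.

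Of 9 genes of the p53 pathway 7 were tested. The groups overlapped in all 7. Among all genes tested, KO lay above WT without overlap in 13.5% and below in 3.07%, so 0 of 7 is near that share. Cdkn1a, the cell cycle inhibitor that p53 induces, was at 30.3, 27.0 and 31.5 TPM in WT and at 41.5, 37.5 and 28.3 TPM in KO. Trp53inp1, a p53-induced nuclear protein gene, was at 1.92 ± 0.467 and 2.43 ± 0.735 TPM, Aen, a p53-induced nuclease, at 3.75 ± 1.47 and 4.503 ± 0.724 TPM, and Mdm2, the ubiquitin ligase that limits p53, at 11.3 ± 1.29 and 12.2 ± 0.685 TPM (SD, n = 3 each). Among the 34, the p53 targets Bax, Bbc3, Pmaip1, Fas and Tnfrsf10b overlapped between the groups as well, as did most genes tested. These are not a complete list of p53 targets.

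Of 6 caspase substrates and outer membrane genes 5 were tested. Lmna, a nuclear lamina gene whose product caspases cut, was at 66.5, 97.2 and 65.0 TPM in WT and at 106, 95.5 and 91.8 TPM in KO, with overlap through WT library 2. Vdac1 and Vdac3, channels of the outer mitochondrial membrane, were at 5.27 ± 0.376 and 5.58 ± 0.158 TPM in WT and at 6.04 ± 0.475 and 6.08 ± 1.56 TPM in KO, and Parp1, a DNA repair enzyme cut by caspases, at 1.72 ± 0.110 and 1.78 ± 0.524 TPM (SD, n = 3 each).

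**Figure D5:**
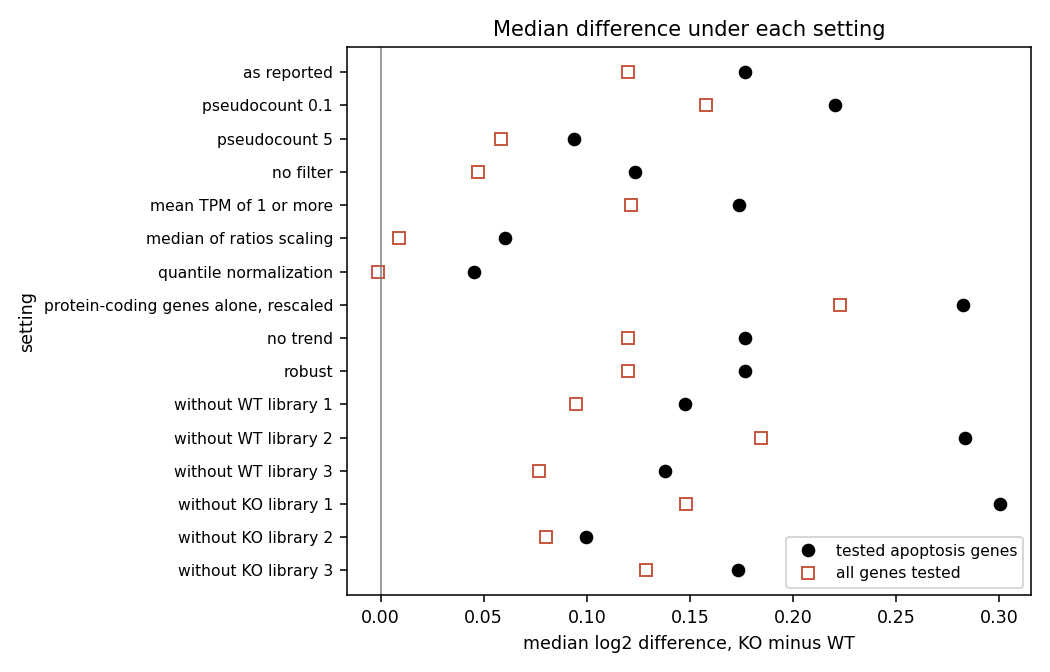
Median log2 difference, KO minus WT, of the tested apoptosis genes (black points) and of all genes tested (open squares) under each processing setting and with each library left out. The members' median lay between 0.05 and 0.30 and above that of all genes tested in every setting drawn.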

How the data were processed

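The 6 RNA-seq libraries, 3 WT and 3 KO, were grouped by the genotype in the labels. RNA was isolated with a Qiagen RNeasy kit, per the labels' protocols. Tools listed in the submitters' processing notes are CASAVA, FastQC, Trimmomatic 0.33 and kallisto, and the builds listed are mm10 and GRCm38, without roles. The authors deposited TPM per gene symbol, and no source used here gives how transcripts were summed. The listed values of a library sum to between 29.5% and 33.4% of the full scale. Without depth, no count model or counting interval was used.

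A gene was kept with a TPM of at least 1 in 3 libraries or more, whatever their group. Log2(TPM + 1) was compared by limma 3.58.1 in R 4.3.3 (lmFit, then eBayes with trend; two-sided), p-values were adjusted by Benjamini-Hochberg over all 8971 genes, and the threshold was 0.05. The fit was tested on simulated data with independent noise for each gene and no shift shared by a library. The outcome is not given here, and that test does not cover such shifts. Gene coordinates are those of GENCODE vM21 (GRCm38, 1-based), by symbol, and promoters those of RefSeq (GRCm38.p6). All members are named, and of the other cell death genes up to 4 per list with the smallest p, except 1 that is not reported here. Members and lists were chosen with earlier results of these data known. Alternatives were pseudocounts of 0.1 and 5, other filters, other scalings, eBayes without trend or robust, and each library left out. Plots were made with matplotlib 3.10.9.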

Additional observations from a re-analysis of the deposited data

How the results depend on the processing

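Under the 15 alternatives 0 members passed a limma adjusted p of 0.05 in either direction (smallest adjusted p 0.115, for Diablo with protein-coding genes alone), and 12 of the 19 kept the sign of their difference. Their median was 0.05 under quantile normalization and between 0.10 and 0.30 with 1 library left out, lowest without KO library 2. The calls over all genes, 3 higher and 2 lower, were 0 and 2 at a pseudocount of 0.1, 2 and 0 at a pseudocount of 5, 0 and 0 with no filter or a filter on mean TPM, 1 and 2 when scaled by the median of ratios, 1 and 0 when quantiles were equalized, 38 and 48 with protein-coding genes alone, rescaled, and 17 and 16 with robust eBayes. With 1 library left out they ranged from 0 to 4 higher and from 0 to 2 lower. Esr1 passed with protein-coding genes alone (-0.96, limma adjusted p = 0.0362) and with robust eBayes (-0.86, limma adjusted p = 0.0240).

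The following differences, none of them past the threshold in any setting, changed sign. Under median-of-ratios scaling the log2 difference was -0.092 for Mcl1, -0.062 for Bcl2l11, -0.0304 for Pmaip1, -0.078 for Cycs, -0.048 for Aifm1, -0.00566 for Fas, -0.0343 for Mdm2, -0.046 for Vdac3, -0.071 for Birc6 and -0.086 for Parp1. Under quantile normalization it was -0.0297 for Mcl1, -0.066 for Bcl2l11, -0.056 for Pmaip1, -0.11 for Cycs, -0.059 for Aifm1, -0.0237 for Fas, -0.046 for Mdm2, -0.056 for Vdac3, -0.095 for Birc6 and -0.10 for Parp1. With 1 library left out the range was -0.28 to 0.19 for Bax, -0.0029 to 0.15 for Mcl1, -0.069 to 0.14 for Bcl2l11, -0.033 to 0.21 for Pmaip1, -0.056 to 0.21 for Cycs, -0.077 to 0.21 for Aifm1, -0.064 to 0.30 for Fas, -0.024 to 0.44 for Aen, -0.085 to 0.22 for Vdac3 and -0.11 to 0.17 for Parp1. The cause was not tested. TPM carry no depth, so how far counting noise limits members near or below 1 TPM is unknown.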
